A study of Mus musculus with 18 samples.

Results

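Splenic CD4 T cells that carried the Ebi3 knockout were compared with wild-type CD4 T cells across all genes, as 6 of the 18 messenger RNA libraries of a mouse study. The 3 KO libraries came from Foxp3 YFP/cre Ebi3 -/- mice and the 3 WT libraries from Foxp3 YFP/cre mice, so both groups shared the reporter and recombinase allele at Foxp3, and only the KO group also lacked Ebi3. Cells were sorted by flow cytometry and held in culture for 72 h with IL-2 (10 ng/ml), anti-CD28 (2 µg/ml) and plate-bound anti-CD3 (2 µg/ml), and 500 ng of RNA entered each 3' tag library with molecular identifiers. Mouse age, any pooling of animals, any exclusion of Foxp3-positive cells from the CD4 sort, and the origin of replicates (separate animals or cultures) are not given by the labels. The p-values therefore speak only to the spread among libraries, which may be technical. In the main fit that spread was estimated over all 18 libraries, not over the 6 CD4 libraries alone. The 3 KO libraries held 2255950, 1874249 and 2109959 counts and the 3 WT libraries 1358671, 1991812 and 1754800 counts.

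EBI3 is a secreted protein without a signalling domain that pairs with p28, encoded by Il27, to form IL-27, and with p35, encoded by Il12a, to form IL-35. IL-27 binds a receptor of Il27ra and Il6st and signals through JAK kinases. In helper T cells it is known to induce the transcription factor c-MAF and the cytokine IL-10 and to restrain type 2 and type 17 responses. EBI3 is also made by B cells and by activated macrophages and dendritic cells, so the makeup of a sorted population matters for its transcript.

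The promoter of Ebi3 is shown because Ebi3 is both the gene removed and the gene of lowest p in the fit of all 18 libraries. The 250 bases before the annotated start, chr17:55952373-55952622 on the plus strand (RefSeq, GRCm38.p6), read as follows, with the match to the NF-kappaB consensus in capitals.
Ebi3: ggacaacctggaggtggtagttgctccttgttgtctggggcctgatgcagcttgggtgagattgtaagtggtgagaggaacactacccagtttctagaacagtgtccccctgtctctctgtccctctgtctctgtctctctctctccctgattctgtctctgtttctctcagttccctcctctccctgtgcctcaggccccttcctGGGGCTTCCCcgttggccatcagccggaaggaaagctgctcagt
NF-kappaB is the factor family through which T cell receptor, Toll-like receptor and TNF signals reach many immune genes. Its consensus was found, on either strand, in 7.25% of 32851 windows of the same 250 bases before annotated starts, Ebi3 included, and a match is a description of letters, not of binding.

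Ebi3 transcript was still counted in every KO library. Ebi3 (ENSMUSG00000003206, chromosome 17, 55952640 to 55957022, GRCm38) had 20.6, 26.1 and 22.5 CPM (counts scaled to library size and expressed per 1e6) in KO libraries, against 60.5, 38.7 and 39.4 CPM in WT libraries. These rest on 47, 50 and 48 counts in KO and 83, 80 and 70 counts in WT. The groups did not overlap, and WT replicate 1 was the highest. The log2 fold change, KO over WT, was -0.98 (SE 0.19, unadjusted p = 9.98e-06, edgeR quasi-likelihood test), the lowest p of 12693 genes tested, and it missed the threshold over all of them (adjusted p = 0.127). With the hemoglobin level of each library as a covariate the log2 fold change was -0.77, and it was likewise -0.77 without WT replicate 1. Which part of the gene was deleted is not given by the labels, and a 3' tag outside it checks nothing about the labels.

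Partners and receptors of EBI3 were listed as 10 genes, of which 7 were tested. Il27 and Il12b had no count in any CD4 library, and a floor of 3 counts stands at 1.31 to 2.19 CPM in these libraries. Il12a had 1.31, 2.09 and 0 CPM in KO libraries, against 2.91, 1.45 and 1.12 CPM in WT libraries, which is near or under that floor. Il27ra, the receptor chain private to IL-27, had a log2 fold change of 0.32 (0.16 with the hemoglobin covariate), and Il6st, the signalling chain shared with IL-6 and IL-35, one of -0.25 (0.06 with the covariate), neither past an unadjusted p of 0.05. Il12rb2, the signalling chain of the IL-12 receptor, had 76.1, 64.8 and 76.7 CPM in KO libraries, against 30.6, 65.2 and 54.6 CPM in WT libraries (log2 fold change 0.50, adjusted p = 0.657 by edgeR). WT replicate 2 lay inside the KO range, and the value was 0.29 with the covariate and 0.27 without WT replicate 1.

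The label of the sorted cells was checked against lineage markers. Cd4 had 157, 107 and 130 CPM in KO libraries, against 103, 127 and 100 CPM in WT libraries, and Cd8a stayed at or below 1.69 CPM in all 6. Cd8b1, which encodes the other CD8 chain, had 4.81, 6.79 and 11.7 CPM in KO libraries, against 1.46, 6.77 and 7.31 CPM in WT libraries. Foxp3, the factor that defines regulatory T cells, stayed at or below 0.56 CPM. B cell RNA was present throughout: the B cell marker Ms4a1, which encodes CD20, had 546, 736 and 598 CPM in KO libraries, against 1191, 606 and 787 CPM in WT libraries. WT replicate 1 stood above every other library in Ms4a1, and the other 5 libraries overlapped between genotypes. Ms4a1 exceeded Cd4 in all 6 libraries, so the values below come from RNA of T and B cells together. Levels of different genes do not give shares of cells.

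Transcripts of the hemoglobin chains, beta (Hbb-bs, Hbb-bt) and alpha (Hba-a1, Hba-a2), mark red cell precursors and reticulocytes. They summed to 746, 987 and 877 CPM in KO libraries, against 1498, 847 and 1048 CPM in WT libraries. The means were 870 ± 121 CPM in KO and 1131 ± 333 CPM in WT (SD, n = 3 each), a log2 difference of -0.35 (two-sided exact permutation p = 0.3, where 0.1 is the smallest this design allows). WT replicate 1 was the highest, WT replicate 3 lay just above the KO range and WT replicate 2 inside it. Without WT replicate 1 the difference was -0.12. The 22 B cell and MHC class II markers summed to 8199, 11147 and 8920 CPM in KO libraries, against 16611, 9256 and 11422 CPM in WT libraries (log2 difference -0.37, exact permutation p = 0.2). The 6 constant T cell receptor and CD3 genes ran the other way, with 1341, 1231 and 1527 CPM in KO libraries, against 879, 1320 and 1209 CPM in WT libraries (log2 difference 0.28, exact permutation p = 0.2). All 8 tested erythroid and platelet markers and all 22 B cell markers had negative fold changes, and all 16 tested T cell receptor and CD3 genes positive ones. In bulk RNA, fewer cells of a type and less RNA per cell cannot be told apart.

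**Figure D1:**
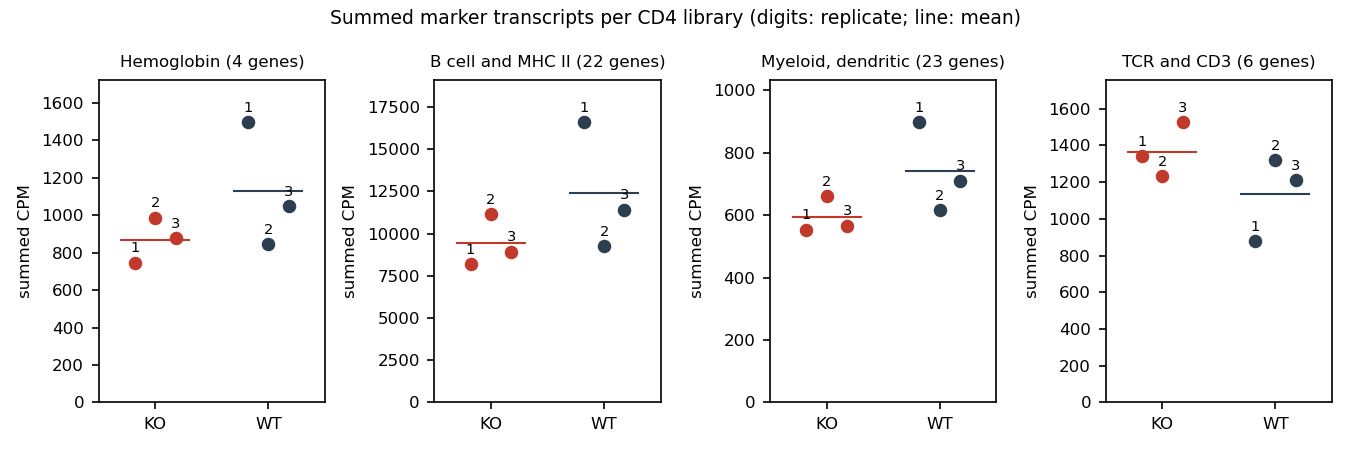
Summed CPM of 4 marker sets in the 3 KO (left, red) and 3 WT (right, dark) CD4 libraries, with replicate numbers beside the points, a line at each mean and axes from 0. WT replicate 1 is the highest library for hemoglobin (1498 CPM), B cell and myeloid markers and the lowest for T cell receptor and CD3 genes (879 CPM), while the other 5 libraries overlap between genotypes.

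WT replicate 1 also stood apart over the transcriptome. On the first principal component of the 6 libraries (54.2% of the variance, 7867 genes) it lay at 30.4, whereas the other 5 lay between -11.3 and -0.41, with KO and WT interleaved. It had the lowest total count. Values below come from the fit of all libraries unless they are said to be with hemoglobin as a covariate or without WT replicate 1.

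No gene passed the threshold of an adjusted p of 0.05 in CD4 cells, 0% of 12693 tested. At an unadjusted p under 0.05 the edgeR test gave 449 genes higher in KO (3.54%) and 480 lower (3.78%), 929 in all, where a share of 0.05 would be 635. By limma-voom 0 genes were called and by DESeq2 1, and leaving out 1 library at a time gave 0 to 2 by edgeR. All KO libraries lay above all WT libraries for 621 genes (4.89%) and below them for 598 (4.71%). With 3 libraries against 3, a level unrelated to genotype gives a share of about 0.05 each way. Separated groups alone therefore do not set a gene apart. With the hemoglobin covariate 567 genes stood at an unadjusted p under 0.05, of which 337 were among the 929, and without WT replicate 1 there were 445, of which 293 were among the 929. With another CD4 library left out the count ran from 597 (without KO replicate 3) to 1729 (without WT replicate 2). The genes described next are therefore candidates, and "higher" and "lower" give the direction of their values in KO relative to WT and not a call.

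**Figure D2:**
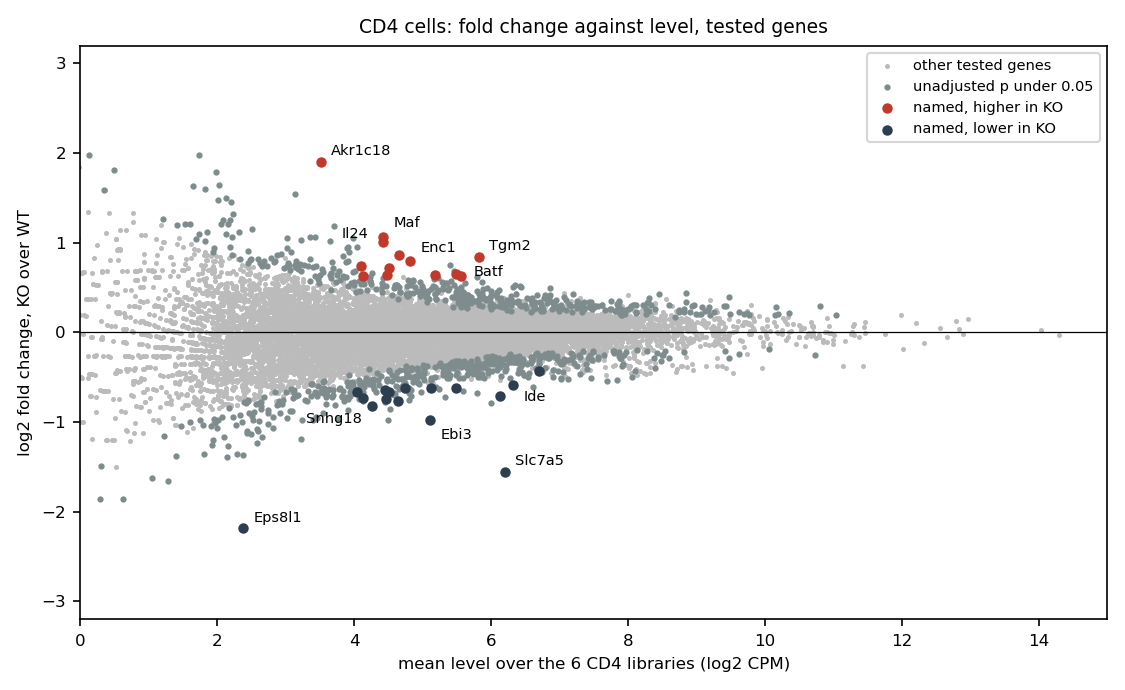
Log2 fold change of KO over WT (vertical) against the mean level over the 6 CD4 libraries in log2 CPM (horizontal) for tested genes above 1 CPM, with darker grey for an unadjusted p under 0.05. Named genes are red where higher and dark where lower in KO, and Slc7a5 (-1.56) and Akr1c18 (1.91) stand outside the cloud of genes at their level.

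The largest negative value among well-counted genes belonged to Slc7a5 (ENSMUSG00000040010, chromosome 8, 121881150 to 121907694), which encodes LAT1, the transporter that brings leucine and other large neutral amino acids into activated T cells. Slc7a5 had 43.3, 42.9 and 26.7 CPM in KO libraries, against 80.1, 118.9 and 129.4 CPM in WT libraries. All KO libraries lay well below the lowest WT library, and here WT replicate 1 was the WT library nearest to KO. By edgeR the log2 fold change came to -1.56 with an SE of 0.29 (unadjusted p = 9.33e-05, adjusted p = 0.265), -1.60 with the hemoglobin covariate and -1.72 without WT replicate 1. It was called when only the 6 CD4 libraries were fitted, and by DESeq2. The same gene had 40.6, 61.8 and 56.1 CPM in CD8 KO libraries, against 149.1, 83.5 and 151.3 CPM in CD8 WT libraries, and the difference between the CD4 and CD8 effects was -0.28 (unadjusted p = 0.493 by edgeR).

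The other genes of the amino acid transporter list did not share that value. Of 16 tested, 7 were higher and 9 lower in KO, and their median log2 fold change was -0.09, against 0 over all genes. At an unadjusted p under 0.05 were 2 lower, Slc7a5 and the mitochondrial folate carrier Slc25a32, against 3.78% of all tested genes. Slc3a2, the heavy chain that carries LAT1 to the membrane, had 251, 260 and 235 CPM in KO libraries, against 195, 246 and 249 CPM in WT libraries (log2 fold change 0.11, and -0.01 with the covariate). Myc, a growth factor-induced transcription factor that raises amino acid uptake and glycolysis after T cell activation, had 32.8, 35.0 and 21.99 CPM in KO libraries, against 24.8, 43.0 and 69.2 CPM in WT libraries. Its groups overlapped through WT replicate 1, with a log2 fold change of -0.64 (adjusted p = 0.666 by edgeR), which was -0.90 without that library. Dnajb9, a chaperone of the endoplasmic reticulum induced by unfolded protein, had a log2 fold change of -0.81 on 9.57 ± 1.70 CPM in KO and 16.9 ± 2.61 CPM in WT (SD, n = 3 each). The integrated stress and unfolded protein response list that holds Dnajb9 did not share its direction as a whole. Of its 30 tested genes 20 were higher and 10 lower in KO, with a median of 0.09, or 0.01 with the covariate. At an unadjusted p under 0.05 were 2 higher and 3 lower, against 3.54% and 3.78% of all tested genes. These counts were 1 higher and 3 lower with the covariate, and 0 higher and 1 lower without WT replicate 1.

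Maf (ENSMUSG00000055435, chromosome 8, 115682942 to 115707794), the gene of c-MAF, was the largest positive value by the same rule. It had 25.4, 32.9 and 29.5 CPM in KO libraries, against 10.2, 14.5 and 16.3 CPM in WT libraries, so that the lowest KO library lay above the highest WT library. By edgeR the log2 fold change came to 1.06 with an SE of 0.29 (unadjusted p = 0.000949, adjusted p = 0.657), 1.08 with the hemoglobin covariate and 0.92 without WT replicate 1. Il10, a cytokine whose gene c-MAF is known to activate, ran the opposite way at a low level, with 5.25, 6.79 and 7.02 CPM in KO libraries, against 13.1, 9.18 and 10.1 CPM in WT libraries (log2 fold change -0.74, adjusted p = 0.657 by edgeR). WT replicate 1 was its highest library. The log2 fold change of Il10 was -0.44 with the hemoglobin covariate and -0.60 without WT replicate 1, and the unadjusted p was above 0.05 under both (0.172 and 0.0776 by edgeR).

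Batf (ENSMUSG00000034266, chromosome 12, 85686669 to 85709087) encodes a factor of the AP-1 family that works with IRF4 in helper T cells. It had 56.8, 55.4 and 60.4 CPM in KO libraries, against 32.8, 35.8 and 42.7 CPM in WT libraries. The groups were clear of each other, and by edgeR the log2 fold change came to 0.63 with an SE of 0.15 (unadjusted p = 0.000204, adjusted p = 0.431). It was 0.55 with the hemoglobin covariate and 0.56 without WT replicate 1. In CD8 cells Batf lay the other way, at 43.9, 55.6 and 38.8 CPM in KO libraries, against 60.2, 61.1 and 56.9 CPM in WT libraries. The CD4 effect minus the CD8 effect was 0.99 (unadjusted p = 3.48e-05, adjusted p = 0.065 by edgeR), short of the threshold but tied for the lowest adjusted p of all genes.

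Type 2 helper genes leaned higher in KO as a list. Of 16 listed genes 10 were tested, 9 higher and 1 lower in KO, with a median log2 fold change of 0.51, against 0 over all genes. At an unadjusted p under 0.05 were 7 higher and 1 lower, against 3.54% and 3.78% of all tested genes. Il13, an effector cytokine of type 2 immunity, had 74.8, 49.1 and 51.9 CPM in KO libraries, against 36.4, 43.0 and 40.5 CPM in WT libraries (log2 fold change 0.55, and 0.36 with the hemoglobin covariate), with no overlap. Il24, a cytokine of the IL-10 family, had 17.5, 30.8 and 38.8 CPM in KO libraries, against 10.9, 16.9 and 14.1 CPM in WT libraries (log2 fold change 1.01), where 1 KO library stood just above the WT range. Ccr4, a chemokine receptor of type 2 and skin-homing T cells, had 49.4, 35.5 and 46.8 CPM in KO libraries, against 13.1, 38.2 and 32.6 CPM in WT libraries, and overlapped. Its log2 fold change was 0.60, but 0.37 with the covariate and 0.31 without WT replicate 1. Gata3, the master regulator of the type 2 fate, had a log2 fold change of 0.31 that missed even the unadjusted threshold and was 0.09 with the covariate and 0.17 without WT replicate 1. Il4 had no more than 1.57 CPM in any of the 6 libraries.

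The median of the 10 genes was 0.34 with the hemoglobin covariate and 0.31 without WT replicate 1, and the count at an unadjusted p under 0.05 was 5 higher with the covariate and 3 higher (Il13, Maf and Il4ra) without that replicate. Of the 12693 tested genes, 315 were higher at that p with the covariate and 237 without that replicate. Hemoglobin summed to 746, 987 and 877 CPM in KO libraries, against 1498, 847 and 1048 CPM in WT libraries, as given above. Type 1 genes had a smaller median of 0.26 (15 tested, 11 higher and 4 lower), which was 0.10 with the covariate and 0.14 without WT replicate 1 (8 higher and 7 lower). Type 17 genes had a median of -0.27 (6 tested, 2 higher and 4 lower), which was 0.01 with the hemoglobin covariate.

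**Figure D3:**
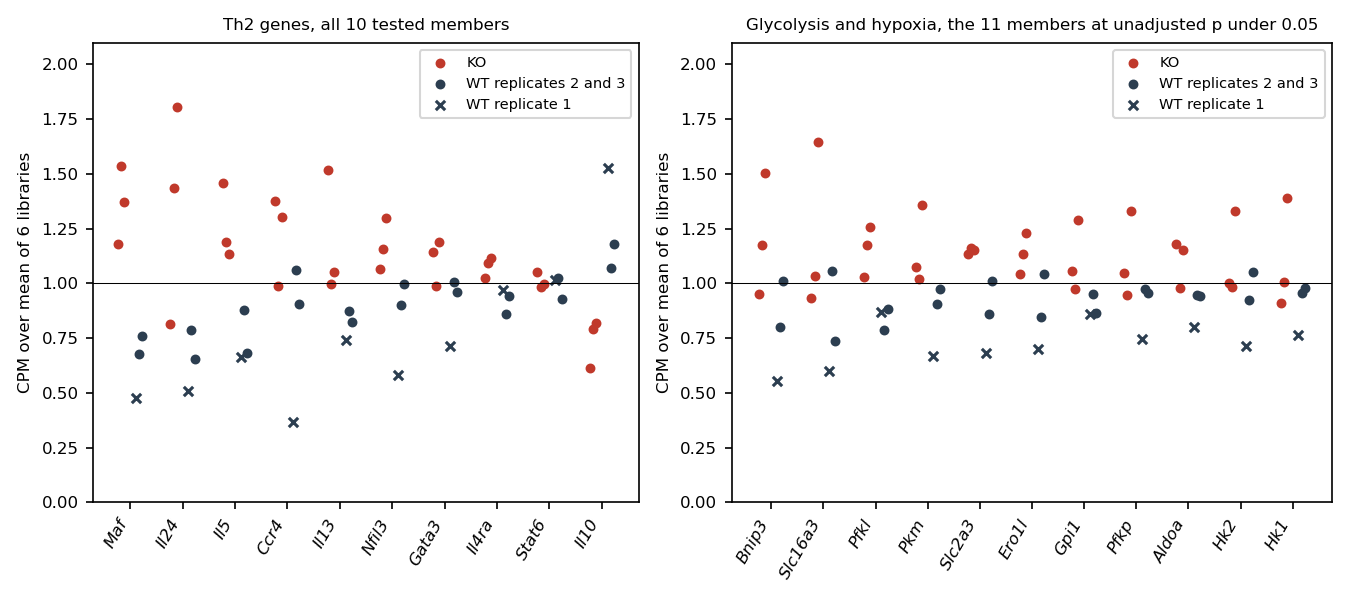
CPM of each gene divided by its mean over the 6 CD4 libraries, for the 10 tested type 2 genes (left) and the 11 glycolysis and hypoxia genes at an unadjusted p under 0.05 (right), with KO points left of WT points. The cross of WT replicate 1 is the lowest point for Maf, Il24 and Ccr4 and the highest for Il10, and it is the lowest point for each glycolysis gene shown except Pfkl.

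Of 19 tested genes of the IL-27 and STAT response, 14 were higher and 5 lower in KO, with a median of 0.15. At an unadjusted p under 0.05 were 4 higher and 1 lower, against 3.54% and 3.78% of all tested genes. The 4 higher were Maf, Batf, Ly6a and Ly6c1, and the same 4 stood there without WT replicate 1. With the hemoglobin covariate 3 were higher and 0 lower at that p, and Ly6c1 was not among the 3 (unadjusted p = 0.057 by edgeR). Ly6c1, a surface protein of memory and effector T cells, had 29.7, 62.2 and 68.8 CPM in KO libraries, against 16.03, 38.2 and 37.7 CPM in WT libraries, which overlapped (log2 fold change 0.75, and 0.48 without WT replicate 1). Reads of Ly6a and Ly6c1 may be split with near-identical Ly6 genes, which makes them uncertain. The list medians with the covariate and without WT replicate 1 were both 0.10.

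The remaining genes of largest positive value had diverse roles. Tgm2, a transglutaminase, had 57.3, 67.9 and 94.5 CPM in KO libraries, against 28.4, 48.8 and 42.7 CPM in WT libraries (log2 fold change 0.84). Ier3, an immediate early gene tied to cell survival, had 31.5, 23.5 and 42.6 CPM in KO libraries, against 18.2, 17.4 and 18.6 CPM in WT libraries (log2 fold change 0.86, and the same without WT replicate 1). Tiam1, an exchange factor for the GTPase RAC, had 59.0, 52.3 and 54.3 CPM in KO libraries, against 24.8, 43.5 and 34.9 CPM in WT libraries (log2 fold change 0.65). Each of these had KO entirely above WT, as the rule that chose them required. The other members were Enc1, an actin-binding Kelch protein (0.80), Sipa1l3, a GTPase-activating protein homologue (0.74), the phosphatase Ptpn5 (0.72), the spindle protein Dlgap5 (0.64), the small GTPase Arl4c (0.64, and 0.42 with the covariate) and the ubiquitin ligase adaptor Dcaf4 (0.63), each first value a log2 fold change. Sipa1l3 was larger with the hemoglobin covariate (0.89) and without WT replicate 1 (0.93).

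**Figure D4:**
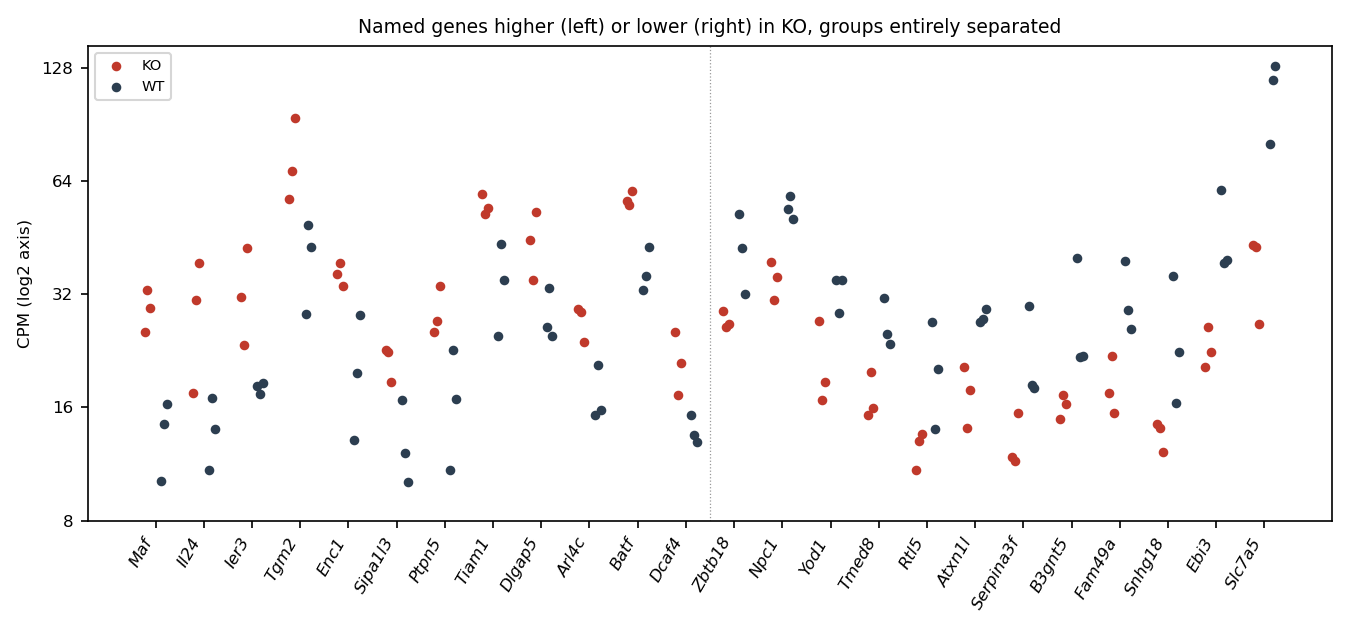
CPM on a log2 axis in each KO (left of each gene, red) and WT (right, dark) CD4 library for the 12 genes of largest positive and the 12 of largest negative log2 fold change among genes at an unadjusted p under 0.05, a mean of at least 16 CPM and no overlap between groups. Slc7a5, at the right end, has the widest gap, 43.3 CPM at most in KO against 80.1 CPM at least in WT.

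On the negative side, beside Slc7a5 and Ebi3, stood 10 genes of diverse roles. Npc1, the lysosomal protein that exports cholesterol, had 38.9, 30.8 and 35.6 CPM in KO libraries, against 53.9, 58.5 and 50.6 CPM in WT libraries. Its groups were clear of each other, with a log2 fold change of -0.63 and an SE of 0.17 (edgeR, adjusted p = 0.657) that was -0.75 with the hemoglobin covariate. Atxn1l, a partner of the repressor Capicua, had 20.6, 14.1 and 17.8 CPM in KO libraries, against 27.0, 27.5 and 29.2 CPM in WT libraries (log2 fold change -0.66). It too held its value with the covariate (-0.64) and without WT replicate 1 (-0.69), as did the deubiquitinase Yod1 (-0.63, -0.59 and -0.58). By contrast, Snhg18, a long noncoding RNA, went to -0.40 with the covariate, against -0.82 without it, the glycosyltransferase B3gnt5 to -0.35, against -0.75, and Rtl5, a gene derived from a retrotransposon, to -0.32, against -0.66. Without WT replicate 1 these 3 had log2 fold changes of -0.51, -0.44 and -0.44, and none of them stood at an unadjusted p under 0.05 under either alternative. The others were Fam49a (-0.76, and -0.50 with the covariate), Serpina3f (-0.73), a protease inhibitor with near-identical neighbours that make its counts uncertain, Tmed8 (-0.64) and the transcriptional repressor Zbtb18 (-0.62).

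All 24 of these genes had the same sign with the hemoglobin covariate and without WT replicate 1. The covariate left between 46.7% and 120% of the log2 fold change, with 20 of 24 still at an unadjusted p under 0.05, and 18 of 24 were there without WT replicate 1. Since the 24 were chosen for separated groups, these counts describe them and support nothing about genes in general.

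A few genes were called only under another setting. Akr1c18, a steroid dehydrogenase that inactivates progesterone, had 18.4, 16.2 and 19.7 CPM in KO libraries, against 3.64, 4.83 and 5.62 CPM in WT libraries, on 42, 31 and 42 counts in KO and 5, 10 and 10 counts in WT. Its log2 fold change was 1.91 with an SE of 0.39 (edgeR, adjusted p = 0.265), and it was called with the 6 CD4 libraries alone. Eps8l1, an adaptor of the EPS8 family, had 2, 4 and 6 counts in KO libraries, against 5, 23 and 19 counts in WT libraries, and was called without WT replicate 1. Ide, the insulin-degrading enzyme, had 57.7, 64.8 and 71.1 CPM in KO libraries, against 69.2, 99.1 and 119.2 CPM in WT libraries. Its groups overlapped only through WT replicate 1, and the log2 fold change of -0.59 became -0.75 with the hemoglobin covariate (adjusted p = 0.00587 by edgeR) and -0.76 without that replicate. Hjurp, the chaperone that loads the centromeric histone CENP-A, had 105.8, 77.9 and 81.9 CPM in KO libraries, against 94.7, 149.8 and 112.5 CPM in WT libraries, and overlapped. Its log2 fold change was -0.44 (adjusted p = 0.657 by edgeR), it was called with the covariate at -0.68 (adjusted p = 0.00307 by edgeR), and it was -0.23 without WT replicate 2.

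Glycolysis and hypoxia genes also leaned higher in KO. Of 30 tested, 26 were higher and 4 lower in KO, and the median log2 fold change was 0.30. At an unadjusted p under 0.05 stood 11 higher and 0 lower, against 3.54% and 3.78% of all tested genes, and 0 were called. Pkm, pyruvate kinase of the last step of glycolysis, had 496, 469 and 627 CPM in KO libraries, against 307, 418 and 448 CPM in WT libraries (log2 fold change 0.44, and 0.27 with the hemoglobin covariate). Aldoa, an aldolase, had 817, 678 and 800 CPM in KO libraries, against 555, 658 and 652 CPM in WT libraries (log2 fold change 0.30, and 0.16 with the covariate). Slc2a3, a glucose transporter, had 51.2, 52.3 and 51.9 CPM in KO libraries, against 30.6, 38.7 and 45.6 CPM in WT libraries (log2 fold change 0.42, and 0.27 with the covariate). In these 3 genes no KO library fell within the WT range, and WT replicate 1 was the lowest. The median was 0.17 with the hemoglobin covariate and 0.16 without WT replicate 1, where Gpi1, Pfkl, Aldoa and Pkm remained at an unadjusted p under 0.05.

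Most lists of T cell signalling and growth genes also had positive medians. Beside their counts, 3.54% of all tested genes were higher and 3.78% lower at an unadjusted p under 0.05. Of 15 tested genes of the IL-2 receptor and STAT5 response 12 were higher in KO, 5 at an unadjusted p under 0.05, with a median of 0.22 that was 0.11 with the covariate, and the 5 became 2 with the covariate and 2 without WT replicate 1. Jak3, the kinase bound to the common cytokine receptor chain, had 92.7, 92.0 and 83.3 CPM in KO libraries, against 72.1, 71.0 and 59.1 CPM in WT libraries, and its log2 fold change was 0.41, and 0.45 without WT replicate 1. All 35 S phase genes were higher in KO, 4 at an unadjusted p under 0.05, but by a median of only 0.18, and 27 of the 35 were higher without WT replicate 1. G2 and M phase genes had a median of 0.22 that was 0.03 with the covariate, aminoacyl-tRNA synthetases one of 0.17 that was 0.08, and nucleolar ribosome biogenesis genes one of 0.16 that was 0.10 with the covariate and 0.06 without WT replicate 1. T cell activation genes (20 tested, 14 higher and 6 lower) had a median of 0.14, which was -0.06 with the covariate (8 higher and 12 lower) and 0.04 without WT replicate 1. The T cell receptor and CD3 list, whose median of 0.30 was 0.10 with the covariate, moved alongside them. Across these lists hemoglobin was again 746, 987 and 877 CPM in KO libraries, against 1498, 847 and 1048 CPM in WT libraries, and B cell markers 8199, 11147 and 8920 CPM in KO libraries, against 16611, 9256 and 11422 CPM in WT libraries. Cytosolic ribosomal proteins (median 0.0064, 83 tested) and mitochondrially encoded transcripts (median -0.0038, 26 tested) were level between genotypes.

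Within the AP-1 and immediate early list the members split. Of 17 tested, 3 were higher (Batf, Ier3 and Fosl2) and 3 lower (Jun, Fosb and Btg2) at an unadjusted p under 0.05, around a median of 0.07. The shares over all tested genes were 3.54% and 3.78%. With the hemoglobin covariate the counts were 3 higher and 1 lower, and without WT replicate 1 they were also 3 higher and 1 lower. Jun, a core AP-1 subunit, had 69.5, 80.5 and 71.6 CPM in KO libraries, against 134.0, 85.1 and 85.5 CPM in WT libraries (log2 fold change -0.44, -0.19 with the covariate and -0.21 without WT replicate 1). Fosl2, a FOS family partner, had 43.3, 46.5 and 48.2 CPM in KO libraries, against 26.2, 38.7 and 32.1 CPM in WT libraries (log2 fold change 0.48, and 0.37 without WT replicate 1).

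Antigen presentation by MHC class I leaned lower in KO. Of 20 tested genes 7 were higher and 13 lower, and the median was -0.13, or -0.06 with the hemoglobin covariate and -0.10 without WT replicate 1. At an unadjusted p under 0.05 were 0 higher and 5 lower, against 3.54% and 3.78% of all tested genes. B cells also carry MHC class I, and their markers summed to 8199, 11147 and 8920 CPM in KO libraries, against 16611, 9256 and 11422 CPM in WT libraries. Hemoglobin beside it was 746, 987 and 877 CPM in KO libraries, against 1498, 847 and 1048 CPM in WT libraries, and the part of either in this list's values was not tested beyond those fits. H2-Q7, a nonclassical class I heavy chain, had 213, 229 and 199 CPM in KO libraries, against 289, 266 and 268 CPM in WT libraries (log2 fold change -0.36 with an SE of 0.09, edgeR, adjusted p = 0.657). The groups did not overlap, and the value was -0.34 with the covariate and -0.32 without WT replicate 1. H2-Q7 shares long stretches with H2-Q6 and other Q genes, so its counts are uncertain. Nlrc5, the transactivator of class I genes, had 36.3, 39.7 and 33.7 CPM in KO libraries, against 45.2, 47.4 and 48.4 CPM in WT libraries (log2 fold change -0.37, and -0.39 without WT replicate 1). Interferon-stimulated genes had a median of -0.16 (33 tested, 10 higher and 23 lower), which was 0.05 with the covariate.

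**Figure D5:**
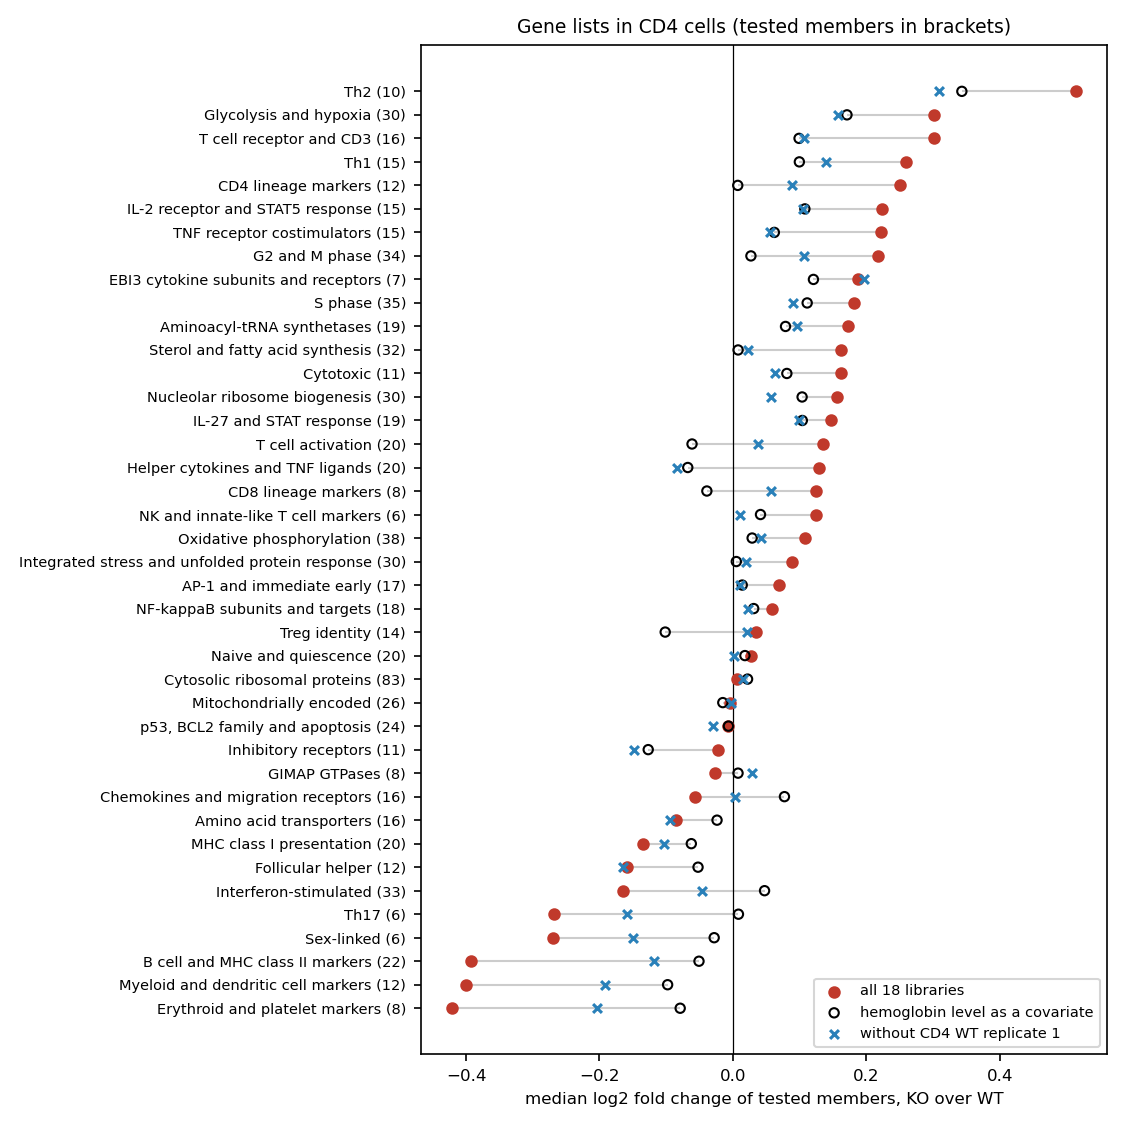
Median log2 fold change of KO over WT in CD4 cells for the tested members of 40 gene lists, fitted with all 18 libraries (red), with hemoglobin as a covariate (open circles) and without CD4 WT replicate 1 (crosses). Type 2 genes have the highest median under each (0.51, 0.34 and 0.31), and the B cell, myeloid and erythroid lists at the bottom lie nearer 0 under both alternatives (the B cell list at -0.39, -0.05 and -0.12).

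The knockout effect was set against the one in CD8 cells of the same mouse strains, each with its own 3 KO and 3 WT libraries. No gene differed between the effects at an adjusted p under 0.05 by edgeR (0% of 12693), while 2269 did so at an unadjusted p under 0.05, and the lowest adjusted p was 0.065. By limma-voom 0 genes differed and by DESeq2 239, and the edgeR count was 218 without CD4 KO replicate 2 and 613 without CD4 WT replicate 2. Ebi3 differed by -0.97 (unadjusted p = 0.00101, adjusted p = 0.0834 by edgeR), since its level in CD8 cells was 27.6, 24.2 and 34.0 CPM in KO libraries, against 29.1, 28.0 and 29.7 CPM in WT libraries. Hemoglobin ran in opposite directions in the 2 cell types, with 1071, 981 and 1466 CPM in CD8 KO libraries, against 625, 705 and 1041 CPM in CD8 WT libraries. With the hemoglobin covariate 0 genes differed at an adjusted p under 0.05 and 658 at an unadjusted p under 0.05 by edgeR, against 2269 without it.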

How the data were processed

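The deposited table holds raw counts per Ensembl gene, made by the authors from 3' tags with molecular identifiers (per the labels' protocols). The submitters' processing notes name STAR 2.5.3a, featureCounts, Subread 2.0.0, UMI-tools 1.0.0, cutadapt 2.10 and FastQC, without settings, strand handling or the treatment of multi-mapping reads, so overlapping and near-identical genes are uncertain. Of 55487 genes 12693 passed filterByExpr (minimum count 10) and were fitted over all 18 libraries and 6 groups with edgeR 4.0.16 (TMM, robust quasi-likelihood, 12 residual degrees of freedom, R 4.3.3), with Benjamini-Hochberg adjustment over all tested genes and a threshold of 0.05. CPM use TMM-scaled totals. Summed CPM were compared by two-sided exact permutation tests. The hemoglobin covariate is the log2 summed CPM of 4 genes.

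The text names Ebi3, lineage and hemoglobin genes; the 12 largest positive and 12 largest negative fold changes, predicted genes passed over, at an unadjusted p under 0.05, a mean of at least 16 CPM and groups apart; genes called where an alternative called 5 or fewer; and up to 3 members of each list by lowest p. Other list members were chosen after their values were seen. Members, lists and rules were chosen with earlier results of these data known. Alternatives were RLE scaling, other count filters, fewer libraries, summed Treg pairs, limma-voom 3.58.1, DESeq2 1.42.0, a replicate block, the covariate, and leaving out each library. The edgeR fit was tested on simulated data. Floors cover counting error only.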

Additional observations from a re-analysis of the deposited data

Results flagged for a closer look

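Of 10 summed marker levels, 5 had a knockout effect that differed between CD4 and CD8 cells at an unadjusted p under 0.05 only. The test was a two-sided exact permutation of genotype within cell type over 400 arrangements. Each p became 0.09 when adjusted over the 10 sums, so none passes the correction. The effect, as a log2 difference of KO from WT in CD4 minus that in CD8, was -0.93 for hemoglobin (p = 0.045, exact permutation), -0.92 for all erythroid and platelet markers (p = 0.045, exact permutation), -0.83 for B cell and MHC class II markers (p = 0.04, exact permutation), -0.71 for myeloid and dendritic cell markers (p = 0.015, exact permutation) and 0.65 for CD4 lineage markers (p = 0.045, exact permutation). Hemoglobin makes up most of the erythroid sum, so these are not separate observations. The CD4 lineage markers summed to 1666, 1395 and 1648 CPM in KO libraries, against 996, 1470 and 1396 CPM in WT libraries, and WT replicate 1 was the lowest. Myeloid markers summed to 554, 661 and 567 CPM in KO libraries, against 898, 617 and 711 CPM in WT libraries. Of the 23 myeloid genes 12 were tested, and Csf3r and Cd209a had no count in any of the 6 libraries.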

How the results depend on the processing

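The count of 0 genes called in CD4 cells was also 0 with RLE scaling, a minimum count of 30, the 12 CD4 and CD8 libraries, summed Treg pairs, the replicate block and limma-voom. Calls numbered 22 without a filter on low counts, 2 when fitting only the 6 CD4 libraries (Slc7a5 and Akr1c18), 2 with the hemoglobin covariate (Hjurp and Ide) and 1 with DESeq2 (Slc7a5). Leaving out 1 library gave 0 to 2 calls: Gm7739 without KO replicate 2, Eps8l1 and Ide without WT replicate 1, Ebi3 and Gm13935 without WT replicate 2. Genes with another effect in CD4 than in CD8 numbered 0, against 602 with no filter, 239 with DESeq2, 192 with the replicate block and 0 to 613 with 1 CD4 library left out (218 without KO replicate 2, 613 without WT replicate 2); the cause was not tested. Ebi3 was past the threshold with no filter (log2 fold change -0.97) and without WT replicate 2, and ranged from -1.10 to -0.77 with 1 library left out. Among other settings, its adjusted p was 0.324 by limma-voom. With only the 6 CD4 libraries it was 0.694 by edgeR (unadjusted p = 0.000229), and there Slc7a5 and Akr1c18 had lower p-values than Ebi3. Same-numbered KO and WT libraries did not deviate together (r = -0.17, -0.36 and 0.04 over 8059 genes). With 3 libraries per group, and WT replicate 1 apart from the rest, these correlations cannot exclude a pairing by number. Under the replicate block the named genes kept their side of the threshold. The hemoglobin difference was -0.54 to -0.12 with 1 library left out. No result changed sign among those given with a call. Of 40 list medians 11 moved beyond the spread between replicates with the hemoglobin covariate. Leaving out WT replicates 1, 2 and 3 moved 5, 7 and 2 medians, and leaving out KO replicates 1, 2 and 3 moved 8, 3 and 1. Within CD4 groups, replicate libraries differed by more than counting error (chi-square per gene 1.65 to 5.30). Within Treg groups the same value ran from 0.91 to 1.41, and the pairs at 0.91 and 0.92 differed by no more than counting error. The main fit shares its spread with these Treg libraries, whereas the fits of 12 and of 6 libraries leave them out.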

Other observations

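Genes beside Ebi3 on chromosome 17 were also examined. Within 5 Mb of Ebi3, 10 of 53 tested genes (18.9%) stood at an unadjusted p under 0.05 by edgeR, against 7.32% of all tested genes, with 28 higher and 24 lower and a median log2 fold change of 0.02. Among them were Pot1b, a telomere-binding protein, with 10.8 ± 3.80 CPM in KO and 18.1 ± 3.52 CPM in WT (SD, n = 3 each), and Yju2, a splicing factor that starts just beyond Ebi3, with 33.5 ± 1.90 CPM in KO and 42.6 ± 1.38 CPM in WT (SD, n = 3 each). Lonp1, a mitochondrial protease, lay the other way, with 137 ± 29.4 CPM in KO and 96.1 ± 27.8 CPM in WT (SD, n = 3 each). These genes were chosen after their values were seen. The count of 10 comes from the main fit and was not repeated with the hemoglobin covariate or without WT replicate 1. Of its members, Satb1, Chaf1a and Uhrf1 stood above an unadjusted p of 0.05 by edgeR under both alternatives, and Rpl36 below it under both. Gm37248, the member of lowest p, lies inside Satb1, so they are not separate loci. Hemoglobin was 746, 987 and 877 CPM in KO libraries, against 1498, 847 and 1048 CPM in WT libraries.

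Transcripts of both sexes were counted in every CD4 library. Xist, made from the inactive X chromosome of females, had 736, 698 and 613 CPM in KO libraries, against 474, 740 and 613 CPM in WT libraries. The Y-linked helicase gene Ddx3y had 11.4, 19.9 and 17.8 CPM in KO libraries, against 31.3, 16.9 and 18.6 CPM in WT libraries. WT replicate 1 had the lowest Xist and the highest Ddx3y.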
